A study of Mus musculus with 6 samples.

Results

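The genes described here encode subunits of the ion channels that carry sodium and calcium into neurons and of the HCN pacemaker channels. They number 30 of the 24242 genes on the array and were taken by name: 3 sodium channel alpha subunits (Scn1a, Scn3a, Scn8a), 2 sodium channel beta subunits (Scn2b, Scn3b), the sodium leak channel Nalcn, 8 calcium channel alpha1 subunits, 3 alpha2delta subunits, 4 calcium channel beta subunits, 6 gamma genes and 3 HCN genes. Every probe carrying one of these names was used, 52 of 39429 probes, each present as 1 spot per array. Of these, 49 probes of 29 genes were bright enough to be tested. RNA came from brain tissue of male mice on the C57BL/6N background, and each of the 6 samples was read on its own 1-colour Agilent array. The 3 wild-type and 3 Pla2g2e-/- samples compared here are all titled sham-operated. The treatment text attached to every one of them describes transient occlusion of the middle cerebral artery instead, so a surgery without ischemia rests on the titles and descriptions. The product of Pla2g2e is a secreted enzyme of the phospholipase A2 family, which cleaves membrane phospholipids. The age of the mice, the brain region and the part of the gene that was deleted are not stated in the labels, and nothing there says that the samples came from separate animals. If they did not, the p-values measure only technical spread.

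Voltage-gated sodium channels open the upstroke of the action potential. Their alpha subunit forms the whole pore, and their beta subunits adjust gating and anchor the channel in the membrane. Voltage-gated calcium channels couple depolarization to transmitter release, gene transcription and pacemaking. Their alpha1 subunit sets the current type, whereas the alpha2delta and beta subunits bring the pore to the surface and shape its gating. Most gamma genes of the brain encode proteins that escort AMPA-type glutamate receptors to synapses. HCN channels open on hyperpolarization and carry a mixed sodium and potassium current that sets resting potential and rhythm.

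Between 82.0% and 85.3% of the 43020 non-control spots of an array gave a signal well above background, and none (0) was saturated. All levels below are log2 signal relative to the 75th percentile of the same array, so 0 is that percentile, and all differences are knockout minus wild type on this log2 scale with the SE of the limma fit. The number of arrays limits the precision, and levels are not set between probes, since probes bind with different strength. Both probes of Pla2g2e itself were dim. One read -8.55, -8.65 and -9.20 in wild type and -8.47, -8.51 and -8.45 in knockout, and the other -7.14, -7.31 and -6.73 against -7.11, -7.94 and -7.90. Without knowledge of the deleted part these probes do not check the genotype labels. The wild-type arrays and knockout 1 were on one slide and knockout 2 and 3 on another, so slide and genotype are partly confounded. One library stood apart. In wild-type 3 the value lay outside the range of the other 5 arrays for 19 of the 29 genes (65.5%), against 53.3% of all genes, 12 of the 19 above and 7 below.

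Markers of neurons were bright, and markers of some regions moved between samples. The neuronal markers Rbfox3 (4.83 to 5.10 in wild type, 4.90 to 5.09 in knockout) and Snap25 (means 5.50 and 5.49) were high on every array. The log2 of their list's summed level was 8.42 to 8.51 in wild type and 8.45 to 8.58 in knockout, with 7 of 12 genes higher in knockout. At an unadjusted p under 0.05 (limma) 3 of the 12 were higher (25%) and 0 lower, against 3.11% and 9.13% of all genes. Striatal markers read lower in knockout in 12 of 12 genes (median difference -0.77). Their summed level ran from 4.66 to 6.23 in wild type and from 4.69 to 5.02 in knockout. The median of the striatal list, relative to the wild-type mean, was -0.27, -0.65 and 0.94 on the wild-type arrays and -0.76, -0.70 and -0.81 on the knockout arrays. Wild-type 3 was far above the rest, and wild-type 1 and 2 were also above every knockout array, wild-type 2 narrowly. Drd1, a dopamine receptor of striatal neurons, read -2.16, -2.28 and -0.84 in wild type and -2.97, -2.65 and -2.69 in knockout, and Drd2 read -5.71, -5.94 and -4.19 against -6.12, -6.17 and -6.38. Cerebellar markers were lower in 8 of 9 genes (summed level 1.94 to 2.95 in wild type, 2.12 to 2.14 in knockout), with Pcp2 at -1.79 and -2.79 and Gabra6 at -5.94 and -8.70 on average. Choroid plexus markers were lower in 8 of 8 genes (2.33 to 4.60 and 2.96 to 3.82; Ttr 3.47 and 3.04, Kl -2.09 and -2.65). Meningeal markers were lower in 8 of 8 genes too (3.06 to 3.88 and 2.70 to 3.19; Col1a1 -0.68 and -1.49, Col1a2 0.83 and 0.33), as were those of pericytes and smooth muscle (2.02 to 2.07 and 1.58 to 1.86; Acta2 -0.80 and -1.57, Tagln 0.34 and -0.04). Oligodendrocyte markers were lower in 9 of 10 genes (6.68 to 7.44 and 6.45 to 7.01), with Mbp at 3.06 and 3.39. Precursor markers were lower in 7 of 8 (3.09 to 3.67 and 3.13 to 3.21; Pdgfra -0.31 and -0.41, Cspg4 -1.30 and -1.32), and red blood cell markers in 5 of 5 (1.62 to 3.55 and -0.07 to 3.93; Hba-a1 2.21 and 1.43, Hbb-b1 -1.86 and -2.60). The other lists were less one-sided: interneuron 6 of 8 higher (6.16 to 6.35 and 6.28 to 6.41; Gad1 3.16 and 3.23, Gad2 2.16 and 2.21), neocortex 5 of 10 (5.40 to 5.52 and 5.39 to 5.45; Tbr1 4.35 and 4.34) and thalamus 4 of 10 (3.26 to 3.43 and 3.24 to 3.33; Tcf7l2 -4.01 and -4.03, Lef1 -0.42 and -0.59). So were astrocytes 4 of 8 (7.32 to 7.46 and 7.25 to 7.47; Aqp4 1.02 and 0.84, Gfap 0.63 and 0.18), microglia 5 of 8 (4.99 to 5.20 and 5.02 to 5.20; Cx3cr1 2.57 and 2.55, P2ry12 0.02 and 0.07) and endothelium 4 of 8 (4.18 to 4.47 and 4.20 to 4.44; Cldn5 1.25 and 1.39, Pecam1 -3.46 and -3.52). Hippocampal markers were higher in 6 of 9 genes, with a median difference of 0.15 (summed level -0.68 to 0.18 and -0.47 to -0.09). At an unadjusted p under 0.05 (limma) 3 of these 9 were higher (33.3%) and 0 lower, against 3.11% and 9.13% of all genes. For 3 of the 9 all knockout arrays lay above all wild-type arrays, against 7.77% of all genes. The first genes of that list read lower on average, Prox1 at -5.28 and -5.40 and Dsp at -6.57 and -7.34. At the unadjusted limit 3 of 9 cerebellar, 3 of 8 pericyte and smooth muscle and 2 of 8 meningeal markers were lower. So were 2 of 8 of choroid plexus, 1 of 10 of neocortex and 1 of 12 of striatum, against 9.13% of all genes. In that order all knockout arrays lay below all wild-type arrays for 4, 3, 4, 2, 1 and 3 genes, against 12% of all genes. Of the oligodendrocyte markers 1 of 10 was higher at that limit.

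Differences in channel subunit RNA between knockout and wild type were small. No member passed the adjusted threshold of 0.05 (limma, Benjamini-Hochberg over 20120 genes, smallest adjusted p among members 0.314), and neither did any other gene (0% of all genes). The knockout mean was higher for 16 of the 29 tested genes and lower for 13, with a median difference of 0.02 against -0.01 over all genes. For 28 of the 29 the difference was under 0.3 in size. The 95% interval lay within 0.5 of 0 on both sides for 23 of them, so for these genes a change larger than that was outside the interval. Half-widths ran from 0.14 to 1.23 with a median of 0.27.

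At an unadjusted p under 0.05 only Cacnb2 was called among the 29 tested members (3.45%), against 2462 of all genes (12.2%). It was higher in knockout, the direction of 3.11% of all genes at that limit, while 9.13% of all genes were lower. That split depends on the scaling: 25.4% of the calls over all genes were higher here, 72.4% when arrays were scaled to their median, 48.5% after quantile normalization and 51.8% after normexp background correction. Scaling to the median moved the median difference of all genes to 0.10 and that of the members to 0.14. The wild-type and knockout values did not overlap for 3 members (10.3%), against 19.7% of all genes. Cacnb2 and Cacng3 were higher in knockout (7.77% of all genes) and Cacna1d lower (12% of all genes). With 3 arrays against 3, an exact permutation test of 1 gene cannot give a p under 0.1. Without wild-type 1 or without wild-type 3 the members higher at the unadjusted limit numbered 3 each time, and without wild-type 2 or knockout 2 there was 1 lower. Of all genes 11.1% passed that limit, in either direction, without wild-type 1, 10.8% without wild-type 3, 14.9% without wild-type 2 and 7.14% without knockout 2. In that order 36.8%, 27.6%, 23.5% and 20.7% of these calls over all genes were higher in knockout, the rest lower. Non-overlap with the knockout higher then held for 8 members without wild-type 1, 5 without wild-type 3 and 7 without knockout 1. Non-overlap with the knockout lower held for 3 without wild-type 1 or 2 and for 2 without knockout 1 or 2. The smaller groups also separated more often over all genes (24.1% to 36.2%).

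**Figure D1:**
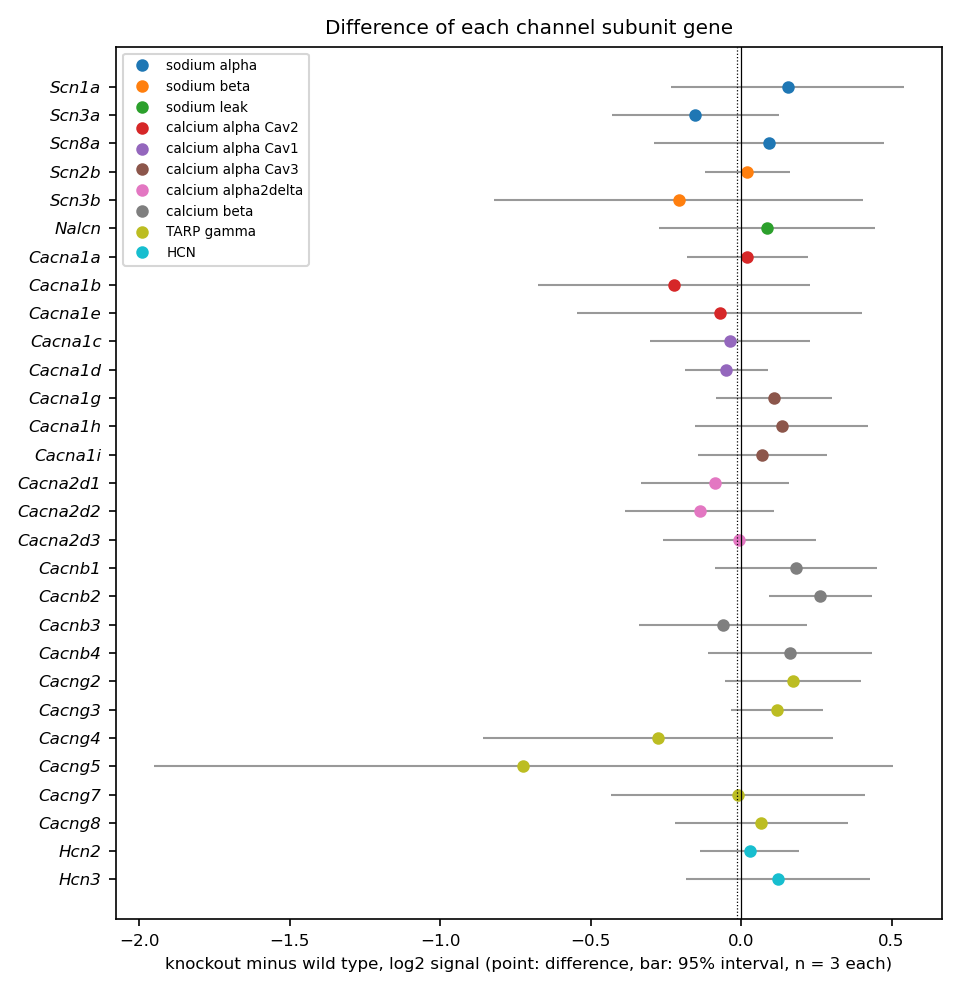
Knockout minus wild-type difference of each tested gene in log2 signal (point) with its 95% interval from the limma fit (bar, 3 arrays per group), coloured by channel class, where Cav1, Cav2 and Cav3 are the L type, the P/Q, N and R types and the T type; the solid line is 0 and the dotted line the median of all genes, -0.01. Only the interval of Cacnb2, 0.09 to 0.43, does not reach 0, and that of Cacng5 is the widest.

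Among the sodium channel alpha subunits, Scn1a and Scn8a were higher in knockout on the probe with the highest mean, which stands for a gene here, and Scn3a was lower. None passed the adjusted threshold. Scn1a encodes the alpha subunit known for its weight in fast-spiking interneurons. The probe standing for it read 3.12, 2.79 and 2.49 in wild type and 2.98, 2.98 and 2.90 in knockout. The difference was 0.15 ± 0.16 (adjusted p = 0.703, limma). The wild-type arrays spread widely around tight knockout values, and without wild-type 3 the difference was 0.00. The other Scn1a probe pointed the other way, with -1.61, -1.64 and -2.04 against -1.81, -2.02 and -1.999 (difference -0.18 ± 0.14). Both probe sequences lie on the minus strand of mm9 and are shown because probes of the same gene gave opposite signs. They target different stretches of the gene, the first at chr2:66111022-66111081 and the second at chr2:66173498-66173557.
Scn1a A_55_P2138761: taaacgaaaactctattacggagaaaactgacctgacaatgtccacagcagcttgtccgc
Scn1a A_55_P2138769: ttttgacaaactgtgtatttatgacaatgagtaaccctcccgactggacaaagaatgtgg

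Scn3a, an alpha subunit best known from the developing brain, read lower in knockout on 5 of 5 probes. On the probe standing for it the values were 0.82, 0.84 and 1.16 in wild type and 0.69, 0.83 and 0.84 in knockout (-0.15 ± 0.11). The groups overlap, and wild-type 3 is the highest array. The probes at chr2:65295675-65295734 and chr2:65297940-65297999 gave -0.18 ± 0.10 and -0.18 ± 0.12. The probe at chr2:65346334-65346393, designed on the transcript AK148881, gave the largest difference, -0.67 ± 0.24. Its values were -3.13, -3.15 and -2.33 in wild type (-2.87 ± 0.46, SD, n = 3) and -3.41, -3.76 and -3.46 in knockout (-3.54 ± 0.19). Every knockout array lay below every wild-type array. Its adjusted p over the 31940 tested probes was 0.378 (limma, unadjusted p = 0.0328), where 12.1% of all probes passed the unadjusted limit, 3.07% as higher and 9.01% as lower. Among the 49 tested member probes that limit was passed by this one and the Cacnb2 probe (4.08%), and 0% of all probes passed the adjusted one. Without wild-type 3, the highest of the arrays, the difference was -0.41. Among the arrays of the slide with both genotypes it was -0.54.

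A further Scn3a probe, at chr2:65332960-65333019, read -5.08, -5.10 and -4.44 in wild type and -5.55, -4.86 and -5.05 in knockout (-0.29 ± 0.25). Here too wild-type 3 was the highest and the groups overlap. These 2 probe sequences, both from the minus strand of mm9, are shown because they carry the widest differences of the gene. Capitals mark GTAAG, letters with which many introns begin, at position 41 counted from the 5′ end of the probe. The 5 letters occur in the printed strand of 3.73% of all probes and of 2 of the 52 member probes, and on either strand in 7.90% and 3 of 52. A match is no sign that the site is used.
Scn3a A_55_P2065294: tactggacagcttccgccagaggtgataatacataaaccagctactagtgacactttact
Scn3a A_55_P2065288: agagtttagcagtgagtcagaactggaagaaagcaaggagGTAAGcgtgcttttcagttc

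**Figure D2:**
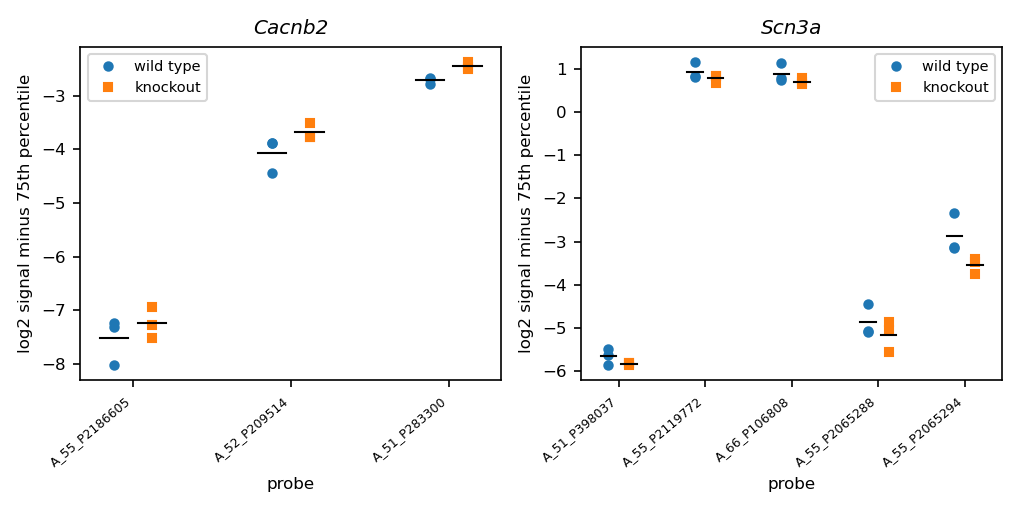
Log2 signal relative to each array's 75th percentile (vertical axis) for every tested probe of Cacnb2 (left) and Scn3a (right), with wild-type arrays as circles, knockout arrays as squares and group means as lines, 3 arrays per group. On all 3 Cacnb2 probes the knockout mean is the higher one and on all 5 Scn3a probes the lower one; groups are apart on 2 Cacnb2 probes and on A_55_P2065294 of Scn3a.

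Scn8a encodes the alpha subunit concentrated at axon initial segments and nodes. Its values were 0.10, -0.27 and 0.17 in wild type and -0.09, 0.30 and 0.07 in knockout, a spread wider than the difference of 0.09 ± 0.16. Its other probes gave 0.18 ± 0.17 and -0.03 ± 0.14, so their signs differ.

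The differences of the sodium channel beta subunits and of the leak channel were within the spread between arrays. Scn2b, an auxiliary subunit of mature sodium channels, had a narrow interval. It read 4.25, 4.17 and 4.20 in wild type and 4.22, 4.24 and 4.22 in knockout, a difference of 0.02 ± 0.06 with a 95% interval of -0.12 to 0.16. Scn3b read 0.07, 0.29 and 1.04 against 0.27, 0.22 and 0.29 (-0.21 ± 0.25, adjusted p = 0.747, limma). A single array, wild-type 3, made the wild-type mean the higher one, and without it the difference was 0.08. Markers of striatum, meninges and choroid plexus were highest on that array too in their median. So were those of thalamus, cerebellum, microglia, endothelium and pericytes with smooth muscle, and the part of all these markers in the result was not tested. Here and for all genes below, fewer cells of a type and less RNA per cell cannot be told apart in RNA from whole tissue. Nalcn, the channel of the background sodium leak, read 0.24, 0.10 and 0.44 in wild type and 0.14, 0.59 and 0.29 in knockout (0.09 ± 0.15), and its dimmer probe gave 0.20 ± 0.15. The groups overlap on both probes.

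Of the 8 calcium channel alpha1 subunits, 4 were higher and 4 lower, and the differences of 7 were between -0.07 and 0.13. In the class of presynaptic calcium channels, Cacna1a (P/Q type) gave 0.02 ± 0.08 on one probe and 0.12 ± 0.09 on the other, and Cacna1e (R type) gave -0.07 ± 0.19. Cacna1b, the N-type channel that triggers release at many synapses, had the largest difference of the class. It read -5.86, -6.25 and -5.61 in wild type and -6.09, -5.97 and -6.33 in knockout (-0.22 ± 0.18, adjusted p = 0.632, limma). The arrays interleave, with wild-type 3 highest and knockout 3 lowest. Its only probe was dim, and the difference was -0.02 after normexp and -0.07 after quantile normalization.

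The L-type subunits Cacna1c and Cacna1d, which link calcium entry to gene transcription and pacemaking, were slightly lower on the probes standing for them. Cacna1d read -1.86, -1.83 and -1.89 in wild type (-1.86 ± 0.03, SD, n = 3) and -1.92, -1.89 and -1.92 in knockout (-1.91 ± 0.02). The groups do not overlap, yet the difference is only -0.05 ± 0.06 (adjusted p = 0.735, limma). The nearest arrays of the groups, wild-type 3 and knockout 2, print the same to 2 decimals. After quantile normalization, normexp or scaling to the median the groups overlapped or turned, and the sign was positive after normexp and after scaling to the median (0.01 and 0.07). Its other probe gave 0.06 ± 0.11. Cacna1c gave -0.04 ± 0.11 on its bright probe and 0.37 ± 0.30 on its dim one.

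The T-type subunits, which open near rest and support burst firing, were all on the higher side in knockout on the probes standing for them: Cacna1g by 0.11 ± 0.08, Cacna1h by 0.13 ± 0.12 and Cacna1i by 0.07 ± 0.09. None passed the test. Cacna1h read 0.55, 0.69 and 0.97 in wild type and 0.93, 0.88 and 0.81 in knockout (adjusted p = 0.652, limma), so the highest array was a wild-type one. Its other probes gave -0.04 ± 0.12 and -0.11 ± 0.09, and the other probe of Cacna1i gave 0.00 ± 0.06. The remaining Cacna1g probe was not tested because its spots on knockout 2 and 3 were marked as outliers. It read 0.42, 0.21 and 0.14 in wild type and 0.37 in knockout 1.

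The alpha2delta subunits, the surface-trafficking partners of the pore and the binding site of gabapentin for some of them, read lower in knockout in 3 of 3 genes, with small differences and none past the test. Cacna2d2 read 1.92, 1.85 and 1.93 in wild type and 1.69, 1.96 and 1.64 in knockout (-0.14 ± 0.10, adjusted p = 0.598, limma). Knockout 1 and 3 were low while knockout 2 was the highest of all arrays. Its other probe gave -0.06 ± 0.12. Cacna2d1 gave -0.09 ± 0.10 and 0.04 ± 0.17 on its probes, and Cacna2d3 gave -0.01 ± 0.10. Scaled to the array median, Cacna2d1 and Cacna2d3 turned to 0.03 and 0.11.

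Among the calcium channel beta subunits, the cytoplasmic partners that hold the alpha1 subunit at the membrane, Cacnb2 had the clearest difference of all members. The probe standing for it, at chr2:14907912-14907971, read -2.69, -2.79 and -2.66 in wild type (-2.71 ± 0.06, SD, n = 3) and -2.46, -2.51 and -2.38 in knockout (-2.45 ± 0.07). All knockout arrays lay above all wild-type arrays. The difference was 0.26 ± 0.07, or 1.20-fold, with a 95% interval of 0.09 to 0.43. It did not pass the adjusted threshold (adjusted p = 0.314, unadjusted p = 0.00964, limma). Over the 18 alternative settings it stayed positive, between 0.23 and 0.38, and its adjusted p ran from 0.237 to 1.00. Within the slide carrying both genotypes, where knockout 1 is the only knockout array, it was 0.25. Averaged over the probes of the gene it was 0.31, and the unadjusted call was lost there, with the slide as a fixed block and within that slide, and was kept with the slide as a random block (0.26).

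The other Cacnb2 probes pointed the same way. The probe crossing from chr2:14882385 to 14885558 read -3.89, -4.44 and -3.89 in wild type and -3.78, -3.50 and -3.76 in knockout. The groups do not overlap, although wild-type 2 lies well below the rest of its group, and the difference was 0.39 ± 0.18 (adjusted p over probes = 0.438, limma). Non-overlap held for 6 of the 49 member probes (12.2%), 4 higher and 2 lower, against 19.4% of all probes. The dimmest probe read -7.23, -8.01 and -7.31 against -7.26, -6.94 and -7.51 (0.28 ± 0.25), with overlap. The middle probe is shown because its 60 bases span 3174 bases of the plus strand of mm9, so it joins stretches that lie apart on the genome.
Cacnb2 A_52_P209514: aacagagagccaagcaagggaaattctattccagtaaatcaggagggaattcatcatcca

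The remaining beta subunits had wider intervals than differences. Cacnb1, also a subunit of the muscle channel, gave 0.18 ± 0.11 (adjusted p = 0.529, limma), Cacnb4, the form tied to ataxia and epilepsy in mice, 0.16 ± 0.11, and Cacnb3 -0.06 ± 0.11. The median of the 4 beta subunits was 0.17, the highest of the classes.

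The gamma genes measured here encode AMPA receptor partners and held both the most uneven and some of the tightest values. Cacng3 read 0.47, 0.53 and 0.56 in wild type (0.52 ± 0.05, SD, n = 3) and 0.59, 0.68 and 0.64 in knockout (0.64 ± 0.05). All knockout arrays lay above all wild-type arrays, by a difference of 0.12 ± 0.06 that did not pass the threshold (adjusted p = 0.482, limma). Cacng2, the stargazin gene, gave 0.17 ± 0.09 (adjusted p = 0.486, limma) on its bright probe, and its second probe was not well above background in either group. Cacng8 gave 0.07 ± 0.12, and Cacng7 gave -0.01 ± 0.17 and -0.08 ± 0.09 on its probes.

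In Cacng5 and Cacng4 the difference rested on 1 wild-type array, and neither passed the test. Cacng5 read -2.98, -3.17 and -1.26 in wild type (-2.47 ± 1.05, SD, n = 3) and -3.14, -3.27 and -3.17 in knockout (-3.19 ± 0.07). Apart from wild-type 3 the arrays lay within a narrow band. The difference of -0.72 ± 0.50, the largest of the members, had a 95% interval of -1.95 to 0.51 (adjusted p = 0.576, limma). Without wild-type 3 it was -0.12, and without wild-type 2 it was -1.07. Cacng4 read -4.38, -4.08 and -3.43 in wild type and -4.26, -4.21 and -4.25 in knockout (-0.28 ± 0.24, adjusted p = 0.646, limma), and without wild-type 3 the difference was -0.01. The striatal list was high on wild-type 3 as well, at 0.94 above the wild-type mean in its median. The meningeal list was highest there too, at 0.41 against -0.75 to -0.05 on the other arrays, as was the choroid plexus list, at 0.60 against -1.07 to 0.49. The lists of thalamus, cerebellum, microglia, endothelium and pericytes with smooth muscle were highest there as well, between 0.02 and 0.18. The part of these markers in the result was not tested. The probes of Cacng3 (chr7:129912275-129912334, plus strand) and Cacng4 (chr11:107596096-107596155, minus strand), both in mm9, are shown as an even and an uneven member of the family.
Cacng3 A_55_P2141454: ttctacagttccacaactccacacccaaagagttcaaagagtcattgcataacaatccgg
Cacng4 A_55_P2052197: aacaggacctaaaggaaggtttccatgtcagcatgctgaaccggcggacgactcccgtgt

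**Figure D3:**
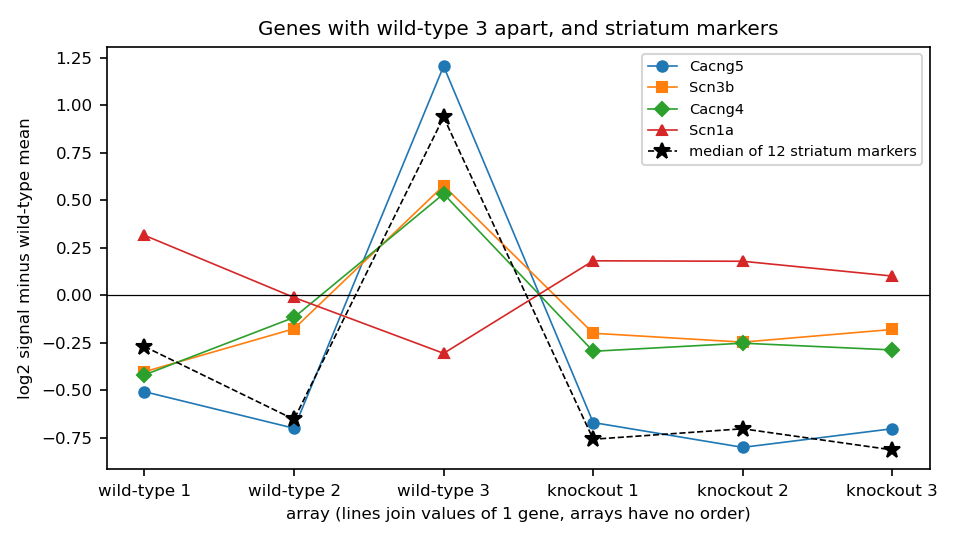
Log2 signal of 4 channel subunit genes on each array relative to the gene's wild-type mean (vertical axis), with the median of 12 striatal markers as a dashed line; lines join values of the same gene and arrays have no order. Cacng5, Scn3b, Cacng4 and the striatal markers are highest on wild-type 3, and Scn1a is lowest there. The 4 genes were picked because wild-type 3 lies apart on them. Other marker lists, among them meninges and choroid plexus, were highest on that array too and are not drawn. The part of any list was not tested.

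No HCN gene passed the test. Hcn2, an HCN form of wide expression in brain, gave 0.03 ± 0.07 on the probe standing for it. Its second probe read 2.25, 2.23 and 1.85 in wild type and 2.26, 2.36 and 2.29 in knockout (0.19 ± 0.12). The groups do not overlap there, but wild-type 1 and knockout 1 differ by less than the wild-type spread. Hcn3 read -2.02, -1.86 and -1.56 against -1.67, -1.70 and -1.70 (0.12 ± 0.12, adjusted p = 0.703, limma), and wild-type 3 was the highest. Hcn4, the main form of the cardiac pacemaker, was not well above background in either group and has no fold. It read -9.21, -10.70 and -10.55 in wild type and -10.88, -9.21 and -9.45 in knockout.

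Across arrays the members' medians relative to the wild-type mean were 0.00, -0.05 and 0.08 in wild type and -0.05, 0.11 and -0.01 in knockout. The groups overlap, and knockout 2 was the highest. The median SD of the members was 0.18 in wild type and 0.07 in knockout, against 0.14 and 0.09 over all genes. The wild-type SD was the larger one for 20 of 29 members (69.0%) and for 65.5% of all genes. The pore-forming subunits had a median difference of 0.05 (9 of 14 higher) and the auxiliary subunits one of -0.01 (7 of 15 higher).

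**Figure D4:**
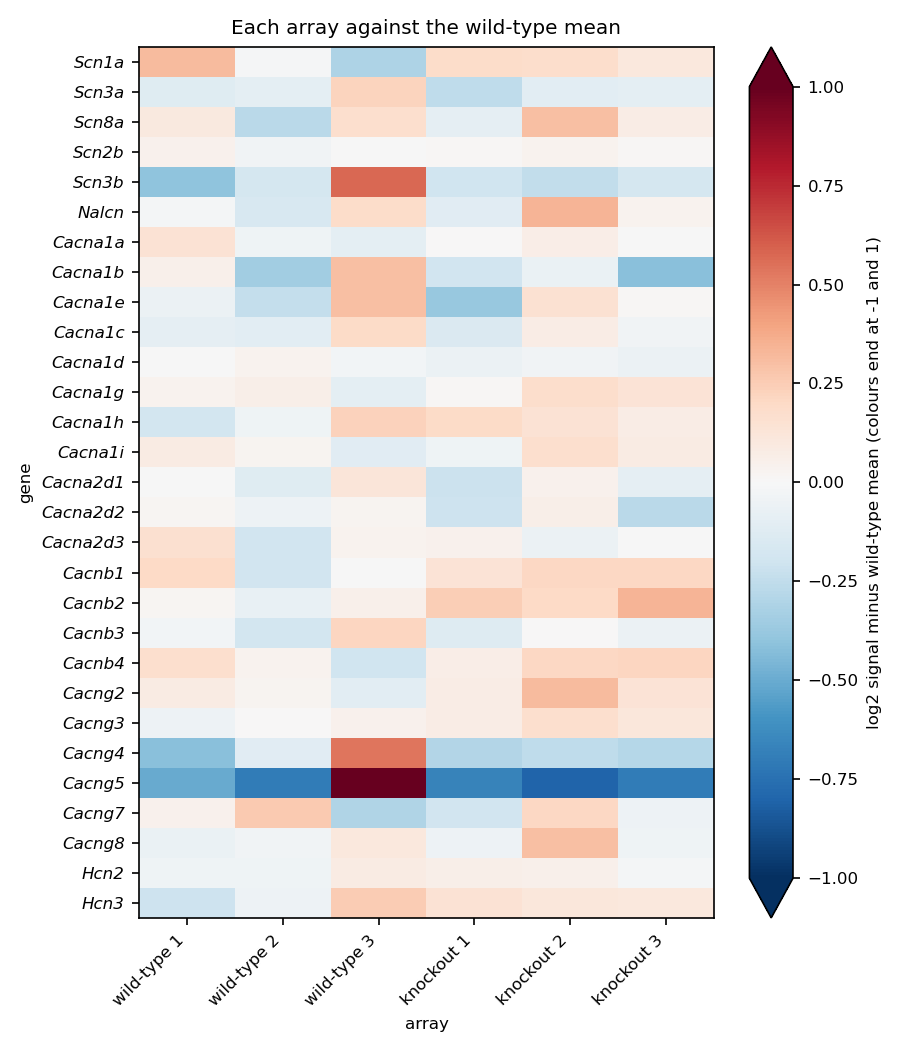
Log2 signal of each tested gene on each array relative to that gene's wild-type mean, as colour from -1 (blue) to 1 (red), with genes in rows and the 6 arrays in columns. Wild-type 3 holds the deepest reds, for Cacng5, Scn3b and Cacng4, while Cacnb2 and Cacng3 are on the red side on all 3 knockout arrays.

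Where several probes of a gene were tested, they often disagreed by as much as the groups did. The signs were opposite in 6 of 14 such members (42.9%), Scn1a, Scn8a, Cacna1c, Cacna1d, Cacna1h and Cacna2d1, against 38.2% of 6126 such genes in all. The median spread between the probes of a gene was 0.12 in both.

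**Figure D5:**
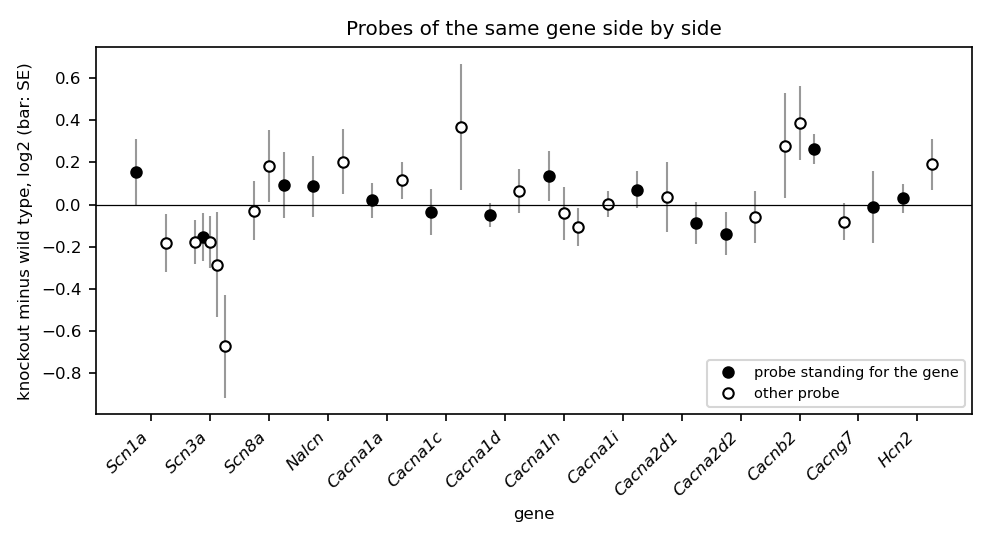
Knockout minus wild-type difference in log2 signal with its SE (bars) for every tested probe of the 14 genes with several tested probes; filled points are the probes that stand for their genes. All 5 probes of Scn3a lie below 0 and all 3 of Cacnb2 above, while 6 genes have probes on both sides.

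Beyond these members, other genes of the same channels were taken from a list. Of its 35 further subunits and partner proteins 34 were tested, 13 higher and 21 lower in knockout with a median difference of -0.08. At the unadjusted limit 0 were higher and 3 lower (8.82%, against 12.2% of all genes), and none passed the adjusted one (smallest adjusted p = 0.269, limma). Cacna1f, an L-type alpha1 subunit of the retina, read -5.75, -5.82 and -5.56 in wild type and -6.14, -6.30 and -6.12 in knockout (-0.48 ± 0.10, adjusted p = 0.269, limma). Scn10a, a sodium channel of sensory neurons, read -4.55, -4.21 and -4.19 against -4.64, -4.66 and -4.72 (-0.36 ± 0.11). Cacna1s, the alpha1 subunit of skeletal muscle, read -2.34, -2.65 and -1.89 against -3.12, -2.99 and -2.67 (-0.63 ± 0.22). In each of these the groups do not overlap, and all are below the 75th percentile. Over the 34 tested companions the groups did not overlap for 17.6%, 3 higher and 3 lower in knockout, against 19.7% of all genes. After normexp the difference of Cacna1f shrank to -0.15 and that of Scn10a to -0.14. Averaged over its probes Cacna1f was at -0.19. Without wild-type 3 only 1 companion passed the unadjusted limit (10.8% of all genes), and without wild-type 2 there were 5 (14.9% of all genes).

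Further companions were picked after their values were seen. The partners of Nalcn gave 0.10 (Unc79 and Unc80 each) and 0.05 (Fam155a). The groups of Unc79 and Fam155a do not overlap, with the knockout higher (7.77% of all genes).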

How the data were processed

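The deposited files hold intensity per spot, which Agilent Feature Extraction 12.1.1.1 had background-subtracted and detrended, per the submitters' processing notes and the file headers. Per the file headers the probe coordinates are those of mm9. No annotation of that build was used here, so exons and UTRs are not named. The deposited processed intensity was put on the log2 scale, from which the 75th percentile of the array's non-control spots was subtracted. The 1377 control spots and spots marked as outliers were left out. A probe was tested when all arrays of 1 group or both had it well above background, with 2 or more values per group. RefSeq accessions (GRCm38.p6) named 29510 of 39429 probes, and the others kept the file's name. Unnamed transcripts stayed out of the per-gene fit. The probe with the highest mean stood for a gene. Groups were compared with limma 3.58.1 (R 4.3.3, lmFit and eBayes), two-sided, with Benjamini-Hochberg adjustment over all genes or all probes. The scripts were tested on simulated data.

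Members and lists were chosen with earlier results of these data known. Values on all arrays are given for members whose groups do not overlap or with an unadjusted p under 0.05, and for the largest difference of each class. Genes with probes of opposite sign are named with each probe. Companions with an unadjusted p under 0.05 and separate groups are named, and of each marker list the first 2 genes. Some of these genes are not reported here. Companion and marker lists came from general knowledge. A summed level is the log2 of the sum of the linear levels. The 18 alternatives changed scaling, background correction, the filter on dim probes, outlier spots, the rule for several probes, slide and replicate blocks, the limma prior and the arrays used.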

Additional observations from a re-analysis of the deposited data

How the results depend on the processing

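No member and no member probe passed the adjusted threshold under any of the 18 alternatives; without knockout 1, 43 other genes did. Of 522 member differences under the alternatives 49 changed sign, and 12 of the 29 genes kept their sign throughout. The count of members higher at the unadjusted limit (1) was 4 with median scaling, 2 with normexp, 0 averaged over probes, 0 with a fixed block for the slide, and 1 to 3 with an array left out. The count lower (0) was 0 to 1 with an array left out. Over all genes 12.2% passed that limit, in either direction, in the main setting, 16.8% with median scaling, 9.92% with normexp and 12.4% averaged over probes. The share was 5.14% with the fixed block and 7.06% to 14.9% with an array left out. Non-overlapping members, knockout higher (2), numbered 10 with median scaling, 1 with normexp and 2 to 8 with an array left out. Those with the knockout lower (1) numbered 0 with median scaling, quantile normalization or normexp, 6 on the slide with both genotypes and 1 to 3 with an array left out. Over all genes the groups did not overlap, in either direction, for 19.7% in the main setting, 29.9% with median scaling, 17.4% with quantile normalization, 17.2% with normexp, 46.2% on the slide with both genotypes and 24.1% to 36.2% with an array left out. The members' median difference was 0.14 with median scaling and -0.01 to 0.08 with an array left out. Companions at the unadjusted limit (3) numbered 1 averaged over probes, 1 on the slide with both genotypes, 5 with the mean-dependent robust prior and 1 to 5 with an array left out.

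Signs turned as follows, and the causes were not tested. Averaged over probes: Scn1a -0.013, Cacna1c 0.17, Cacna1d 0.0078 and Cacna1h -0.0049. With median scaling, which raises all genes: Cacna1e 0.047, Cacna1c 0.082, Cacna1d 0.069, Cacna2d1 0.031, Cacna2d3 0.11, Cacnb3 0.058 and Cacng7 0.11. With quantile normalization: Scn2b -0.030, Cacna1a -0.014, Cacna1e 0.080 and Hcn2 -0.019. With normexp: Cacna1e 0.034, Cacna1d 0.0084 and Hcn2 -0.023. With the slide as a fixed block, and equally within the slide of both genotypes: Scn8a -0.093, Nalcn -0.11, Cacna1i -0.040, Cacna2d3 0.040 and Cacng8 -0.054. With the slide as a random block: Cacng7 0.011. With an array left out: Scn8a -0.041 to 0.19, Scn3b -0.41 to 0.080, Nalcn -0.040 to 0.19, Cacna1a -0.028 to 0.090, Cacna1e -0.19 to 0.082, Cacna1c -0.092 to 0.060, Cacna2d3 -0.10 to 0.074, Cacnb3 -0.15 to 0.046, Cacng7 -0.16 to 0.12 and Cacng8 -0.049 to 0.13.

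Arrays sharing a replicate number did not deviate together (r = -0.01, -0.14 and -0.14 for numbers 1, 2 and 3). With 3 arrays per group these values cannot show whether the numbers mark pairs. With the replicate number as a block 0 members passed the adjusted threshold, 1 was higher at the unadjusted limit, no sign turned and 2082 genes passed that limit against 2462 without it. Differences of dim genes depend on the background correction, and the number of arrays limits all of them.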
